A study of Mus musculus with 12 samples.

Results

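The cytosolic ribosomal protein genes were followed in 4T1, a BALB/c mammary carcinoma line of the mouse that the labels call triple-negative. Members were taken by symbol: Rps or Rpl with a number and an optional a or x, plus Rplp0, Rplp1, Rplp2 and Rpsa. This rule found 76 genes, 30 of the small (40S) and 46 of the large (60S) subunit, among 40406 entries of the count table. All 76 passed the filter on low counts and were among the 15538 genes tested. The rule used names only and no measured values.

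RNA sequencing covered 4 groups of 3 libraries: integrin β3 knockout-labelled cells with docetaxel, knockout-labelled cells with DMSO, wild-type cells with docetaxel and wild-type cells with DMSO. Docetaxel, a taxane that stabilises microtubules, was given at 10 nM for 24 h, or DMSO alone for 24 h. Both were followed by 48 h without drug, and every culture was grown on poly-L-lysine in medium with serum. The labels call the cultures biological triplicates. The sources used here do not say how the knockout was made or whether the knockout-labelled line is 1 clone.

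Libraries held 28729118 to 40801679 counts. Itgb3, the gene named in the knockout label, averaged 62.4 ± 2.77 CPM (counts scaled to a common library size) in knockout-labelled docetaxel cells, 64.7 ± 2.14 CPM in knockout-labelled DMSO cells, 83.1 ± 4.88 CPM in wild-type docetaxel cells and 65.9 ± 5.67 CPM in wild-type DMSO cells (SD, n = 3 each). The Itgb3 transcript therefore separated the labels only after docetaxel (edgeR adjusted p = 0.00765, against 0.874 under DMSO), and the cells are called knockout-labelled throughout. Wild-type DMSO library 1 carries a description of knockout cells, against its title and genotype field, and was kept as wild type; without it 32 genes of the family were called after docetaxel in knockout-labelled cells (30 with it) and 55 in wild-type cells (58 with it), and 10 between genotypes under DMSO (7 with it). Epithelial Krt8 ran from 564 to 813 CPM and Epcam from 309 to 553 CPM, whereas the stromal gene Lum was at 0 and the leukocyte gene Ptprc was at most 0.252 CPM. Of the other lineages' markers, Pdgfra at 11.0 to 29.7 CPM and Cd3e at 1.34 to 4.23 CPM were the highest, and the other 9 were at most 1.99 CPM. Receptor status in the labels is triple-negative: Pgr was at most 0.112 CPM, while Esr1 ran from 20.4 to 50.5 CPM and Erbb2 from 74.3 to 143 CPM. The noncoding entries Gm26917 and Gm23935 took 7.07 to 11.9% and 0.137 to 3.98% of counts, and Gm23935 was highest in wild-type DMSO library 2 and, after docetaxel, in knockout-labelled library 3.

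Each ribosome carries 1 set of small subunit proteins around its decoding RNA and 1 set of large subunit proteins around its peptide-bond-forming RNA. Mammalian ribosomal protein mRNAs begin with a run of pyrimidines, the terminal oligopyrimidine (TOP) motif, through which mTORC1 controls their translation as a group. Proliferating cancer cells devote a large part of their transcription and translation to making ribosomes. Rpl5 and Rpl11, which bind the ribosome's smallest RNA, are also known to bind and inhibit Mdm2, the ligase that degrades p53.

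Promoter sequences were read from RefSeq (GRCm38.p6), in which 56 of the 76 genes were matched. The 8 below run from 40 bases before an annotated start to 20 bases from it, 5′ to 3′ on the gene's strand, with the longest pyrimidine run within 20 bases of the start in capitals. They were chosen after values were seen: Rpl10a, Rps4x, Rps28 and Rpl36a for their large falls after docetaxel, and Rps27, Rps24, Rpl34 and Rpl15 because they were lower in knockout-labelled cells under DMSO.
Rpl10a: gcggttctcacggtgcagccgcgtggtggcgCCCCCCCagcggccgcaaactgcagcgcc
Rps4x: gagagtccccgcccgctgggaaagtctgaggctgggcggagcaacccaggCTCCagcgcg
Rps28: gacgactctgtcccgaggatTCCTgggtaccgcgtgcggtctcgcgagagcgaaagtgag
Rpl36a: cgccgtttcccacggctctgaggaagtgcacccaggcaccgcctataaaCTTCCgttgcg
Rps27: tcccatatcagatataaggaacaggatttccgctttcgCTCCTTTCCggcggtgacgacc
Rps24: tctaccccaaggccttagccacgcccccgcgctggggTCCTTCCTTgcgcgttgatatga
Rpl34: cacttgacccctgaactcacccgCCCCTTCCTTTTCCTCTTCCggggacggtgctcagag
Rpl15: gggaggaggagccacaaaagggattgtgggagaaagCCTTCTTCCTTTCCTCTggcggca

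In GRCm38.p6 these windows are chr17:28328431-28328490 on the plus strand for Rpl10a, chrX:102189372-102189431 on the minus strand for Rps4x, chr17:33824543-33824602 on the minus strand for Rps28 and chrX:134585614-134585673 on the plus strand for Rpl36a. The others are chr3:90213629-90213688 on the minus strand for Rps27, chr14:24490638-24490697 on the plus strand for Rps24, chr3:130730318-130730377 on the minus strand for Rpl34 and chr14:18270967-18271026 on the minus strand for Rpl15. Rpl10a, Rps24 and Rpl34 have a further annotated start that is not shown. A run of at least 8 pyrimidines lay within 20 bases of a start in 28 of 56 matched genes (50%), against 18.4% of 27025 genes with a promoter in the same table. Over the window from 250 bases before to 50 bases after the start, on both strands, the ETS-type motif CCGGAAG was present in 41.1% of the members and 9.93% of all genes. TATAAA on both strands was present in 10.7% of the members and 15.7% of all genes, GCCATNTTG on both strands in 5.36% and 2.90%, and CTCTTTC on the gene's strand in 23.2% and 4.60%. A match describes letters in the window and is not a binding site or a measured start.

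Ribosomal protein transcripts made up a smaller share of each docetaxel library than of any DMSO library, in both subunits. The 30 small subunit genes held 2.01, 2.26 and 2.18% of counts in knockout-labelled docetaxel cells, against 2.71, 2.75 and 2.63% in knockout-labelled DMSO cells. They held 2.03, 2.25 and 2.14% in wild-type docetaxel cells, against 2.59, 2.64 and 2.95% in wild-type DMSO cells. The docetaxel and DMSO ranges did not overlap in either genotype.

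**Figure D1:**
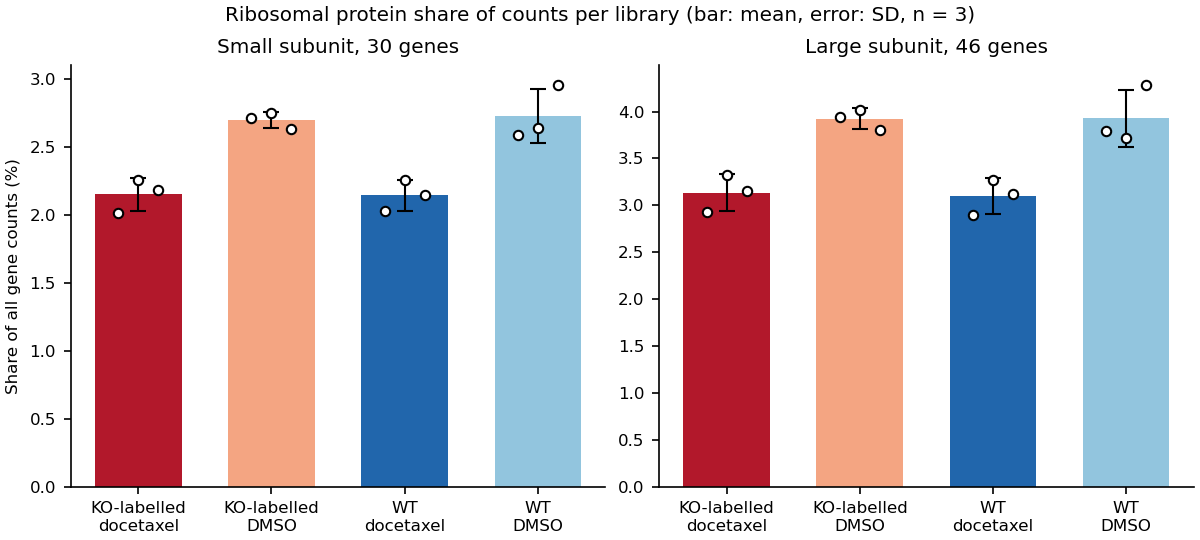
Share of all gene counts (%, y axis) held by the 30 small subunit and 46 large subunit genes in each group; bars are means, error bars the SD over 3 libraries and circles single libraries. Every docetaxel library lies below every DMSO library of its genotype, at 2.01 to 2.26% against 2.59 to 2.95% for the small subunit.

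The 46 large subunit genes held 3.13 ± 0.198% in knockout-labelled docetaxel cells, against 3.92 ± 0.113% in knockout-labelled DMSO cells (SD, n = 3 each). In wild-type cells they held 3.10 ± 0.190% after docetaxel, against 3.93 ± 0.306% with DMSO (SD, n = 3 each). An exact two-sided permutation test of 3 libraries against 3 cannot give a p below 0.1, so these shares alone cannot pass 0.05. Both subunits fell together: the ratio of large to small subunit counts was 1.46 ± 0.0127 in knockout-labelled docetaxel cells, 1.45 ± 0.00979 in knockout-labelled DMSO cells, 1.45 ± 0.0154 in wild-type docetaxel cells and 1.44 ± 0.0299 in wild-type DMSO cells (SD, n = 3 each). The shares are parts of each library, and in such bulk RNA fewer cells of a kind and less RNA per cell cannot be told apart.

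Levels within the family spanned a wide range. Leaving out Rpl24, mean levels over the 12 libraries ran from 58.3 CPM for Rpl26 to 2718 CPM for Rpsa, a small subunit protein that is also known as a laminin receptor. Per kilobase of transcript, on lengths from GENCODE release M21 that are approximate, Rplp1 stood highest at 4244 CPM per kb, followed by Rpl41 at 3504 and Rpl13 at 1639 in the large subunit. Rplp1 is an acidic stalk protein that recruits elongation factors, and Rpl41 is the smallest protein of the ribosome. Rps12, Rps28 and Rps29 led the small subunit at 2502, 2485 and 2218 CPM per kb, and Rps20, Rps3 and Rps19 were lowest at 193, 397 and 580 CPM per kb. Rps20 and Rps3 have annotated lengths of 3706 and 1908 nt, which lower their values per kilobase. In the large subunit Rpl26 and Rpl35 were low at 111 and 188 CPM per kb. Rpl24 stood apart at 1.12 CPM per kb, or 0.395 to 1.27 CPM in single libraries; it shares its strand and position with Gm28037, which was at 0.

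In knockout-labelled cells 30 of the 76 genes fell after docetaxel and none rose, 16 of 30 in the small and 14 of 46 in the large subunit, against 7.0% of all 15538 tested genes called lower (9.09% higher, 16.1% in either direction). At an unadjusted p under 0.05 there were 60 genes of the family, against 30.4% of all tested genes. The median change was -0.34, against 0.00 over all tested genes, and 75 of 76 fitted changes were negative. In 66 genes, among them all 30 of the small subunit, every docetaxel library lay below every DMSO library, against 18.5% of all tested genes. The exception to the negative sign was Rpl26, with a change below 0.01 that turned negative under upper-quartile scaling and on leaving out any of 6 single libraries. The count of 30 was 8, 7 and 10 on leaving out knockout-labelled DMSO library 1, 2 or 3, 8 without knockout-labelled docetaxel library 1 or 3, and 17 without wild-type docetaxel library 3. A correction of each library for transcript length lowered it to 14, and one for GC content within groups raised it to 49.

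In wild-type cells 58 of the 76 genes fell after docetaxel and none rose, with 25 of 30 falling in the small and 33 of 46 in the large subunit. Among all tested genes 13.8% were called lower, 14.5% higher and 28.4% in either direction. At an unadjusted p under 0.05 there were 66 genes of the family, against 39.8% of all tested genes. All 76 fitted changes were negative, from -0.15 for Rpl27 to -0.77 for Rpl10a on the log2 scale, with a median of -0.44 against 0.02 over all tested genes. The median was -0.44 in the small and -0.44 in the large subunit, or 26.3% and 26.2% lower. In 54 of the 76 genes every docetaxel library lay below every DMSO library, as did 19.3% of all tested genes. The 18 genes that did not pass included Rps3, Rps9, Rpl11, Rplp1 and Rplp2. The count of 58 was 31 without wild-type docetaxel library 1, 38 without wild-type docetaxel library 3 and 37 without wild-type DMSO library 3.

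**Figure D2:**
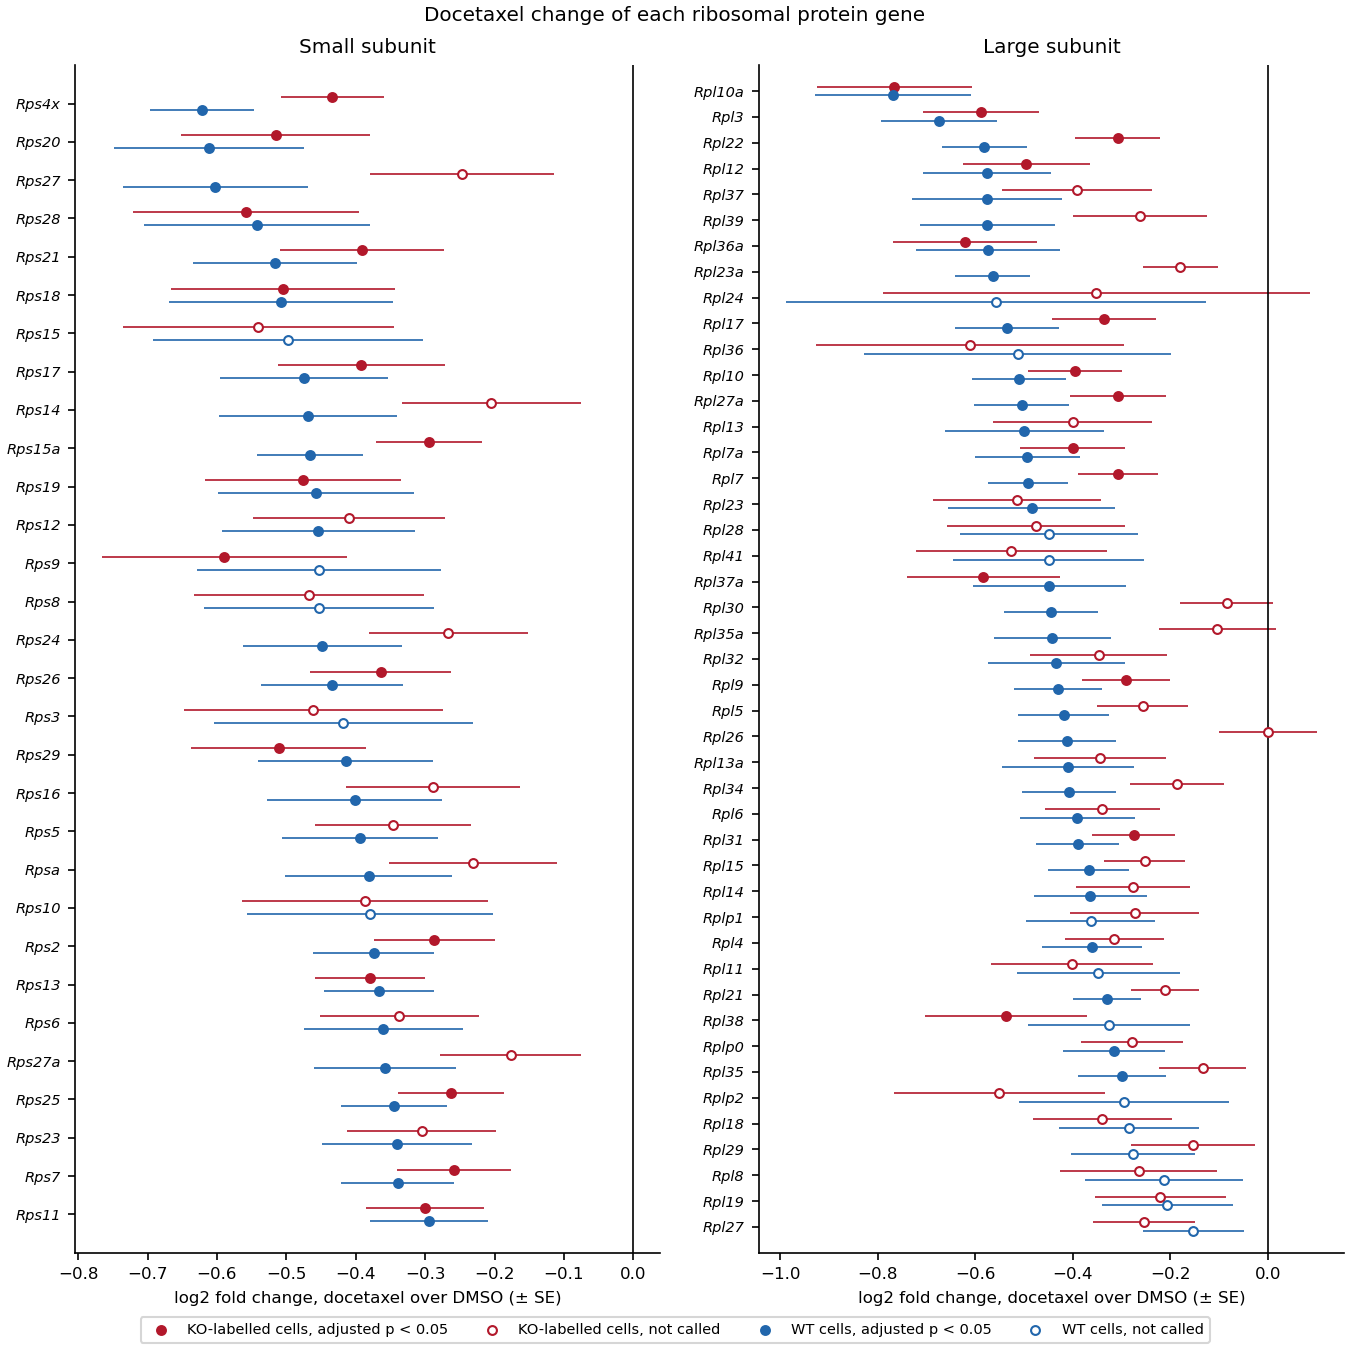
Change of each gene after docetaxel on the log2 scale (x axis, docetaxel over DMSO, bars ± SE), for knockout-labelled (red) and wild-type (blue) cells, with genes sorted by their wild-type change. Filled points passed an adjusted p of 0.05, 1 gene is not drawn, and nearly every point lies left of 0.

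Of the small subunit, Rps4x had the largest fall in wild-type cells. Rps4x, the X-linked copy of a small subunit protein, measured 747, 731 and 774 CPM in knockout-labelled docetaxel cells, against 995, 1020 and 1026 CPM in knockout-labelled DMSO cells. In wild-type cells it measured 689, 772 and 726 CPM after docetaxel, against 1108, 1123 and 1134 CPM with DMSO. The groups were well apart in both genotypes, with log2 changes of -0.43 in knockout-labelled and -0.62 in wild-type cells (SE 0.075 each, edgeR adjusted p = 0.00145 and 8.29e-05). Rps20, a protein of the small subunit head, fell by 0.52 in knockout-labelled and by 0.61 in wild-type cells (edgeR adjusted p = 0.0203 and 0.00485). Rps28, which lies near the mRNA exit, fell by 0.56 and 0.54 (edgeR adjusted p = 0.0317 and 0.0231). Rps27, a zinc-finger protein, changed by -0.25 in knockout-labelled cells, which did not pass (edgeR adjusted p = 0.230), and fell by 0.60 in wild-type cells (edgeR adjusted p = 0.00451).

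Rps9 and Rpl38 were called in knockout-labelled cells but not in wild-type cells. Rps9, a protein of the mRNA entry side, measured 547, 858 and 718 CPM in knockout-labelled docetaxel cells, against 1080, 1094 and 1020 CPM in knockout-labelled DMSO cells. The docetaxel libraries were lower but spread widely, and the log2 change was -0.59 (SE 0.18, edgeR adjusted p = 0.0354). Its change in wild-type cells, -0.45, had an edgeR adjusted p of 0.0692, and the difference between genotypes had one of 0.873. Rps29, a zinc-binding protein of the head, fell by 0.51 in knockout-labelled and by 0.41 in wild-type cells (edgeR adjusted p = 0.0141 and 0.0250).

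In the large subunit Rpl10a, a protein of the mobile stalk at which spent tRNA leaves, fell furthest in both genotypes. It measured 371, 532 and 456 CPM in knockout-labelled docetaxel cells, against 730, 886 and 695 CPM in knockout-labelled DMSO cells. In wild-type cells it measured 382, 514 and 471 CPM after docetaxel, against 737, 657 and 937 CPM with DMSO. No docetaxel library reached the lowest DMSO library, and the log2 change was -0.77 in both (SE 0.16, edgeR adjusted p = 0.00526 in knockout-labelled and 0.0031 in wild-type cells).

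Rpl3, whose long loop reaches the peptidyl transferase centre, measured 431, 538 and 494 CPM in knockout-labelled docetaxel cells, against 722, 755 and 723 CPM in knockout-labelled DMSO cells. Its log2 change was -0.59 there (SE 0.12) and -0.67 in wild-type cells (SE 0.12), with edgeR adjusted p = 0.00436 and 0.00115. Rpl22, an RNA-binding protein that is dispensable for the ribosome itself, fell by 0.31 in knockout-labelled and by 0.58 in wild-type cells (edgeR adjusted p = 0.0272 and 0.000379). Rpl12, at the base of the stalk where elongation factors bind, fell by 0.50 in knockout-labelled and 0.58 in wild-type cells (edgeR adjusted p = 0.0200 and 0.00535). Rpl36a and Rpl37a, both zinc-binding proteins, fell by 0.62 and 0.58 in knockout-labelled cells (edgeR adjusted p = 0.0113 and 0.0215). They fell by 0.57 and 0.45 in wild-type cells (edgeR adjusted p = 0.0106 and 0.0457).

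Genes with well-known roles, themselves members of the family, changed as follows. Rps6, the classic substrate of S6 kinase downstream of mTORC1, measured 397, 504 and 429 CPM in wild-type docetaxel cells, against 523, 523 and 661 CPM in wild-type DMSO cells. These groups did not overlap. Its change of -0.34 in knockout-labelled cells did not pass (edgeR adjusted p = 0.0593), and that of -0.36 in wild-type cells did (edgeR adjusted p = 0.0301). Rpl5 changed by -0.26 in knockout-labelled cells (edgeR adjusted p = 0.0768) and by -0.42 in wild-type cells (edgeR adjusted p = 0.00485), and Rpl11 by -0.40 and -0.35 (edgeR adjusted p = 0.118 and 0.136). Rpl10, a late-assembling protein at the tRNA sites, fell in both genotypes, by 0.40 in knockout-labelled and 0.51 in wild-type cells (edgeR adjusted p = 0.0132 and 0.00179). Rps19, mutated in Diamond-Blackfan anaemia in humans, also fell in both, by 0.48 and 0.46 (edgeR adjusted p = 0.0338 and 0.0265).

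Of the stalk proteins Rplp0, Rplp1 and Rplp2, none passed in knockout-labelled cells, at -0.28, -0.27 and -0.55 (edgeR adjusted p = 0.0867, 0.181 and 0.0995). In wild-type cells Rplp0, the anchor, fell by 0.32 (edgeR adjusted p = 0.0368), whereas Rplp1 at -0.36 and Rplp2 at -0.30 did not pass (edgeR adjusted p = 0.0540 and 0.334). Rpsa fell in wild-type cells by 0.38 (edgeR adjusted p = 0.0299), and so did Rps27a, which is made as a fusion with ubiquitin, by 0.36 (edgeR adjusted p = 0.0183). Rps3, which also has a role in DNA repair, changed by -0.46 in knockout-labelled and -0.42 in wild-type cells and passed in neither (edgeR adjusted p = 0.110 in both).

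No gene of the family passed edgeR's test of a difference between genotypes in the docetaxel change. The interaction of genotype and treatment was called for 0 of 76 genes, against 0.0901% of all tested genes higher, 0.0193% lower and 0.109% in either direction. At an unadjusted p under 0.05 in edgeR were Rpl22, Rpl23a, Rpl26 and Rpl30, 4 genes against 11.0% of all tested genes, and there was 1 call by DESeq2 (Rpl23a) and 0 by limma-voom. Both genotypes shared 28 calls, 2 were made in knockout-labelled cells alone and 30 in wild-type cells alone, counts that do not by themselves show a difference in response. The fall was larger in wild-type cells for 53 of 76 genes. The family's median interaction of 0.08 was -0.04 without wild-type DMSO library 3 and -0.0034 without wild-type docetaxel library 1, so its direction rests on single libraries. Rpl26, which lies near the peptide exit tunnel and binds p53 mRNA, measured 56.8, 57.7 and 55.5 CPM in knockout-labelled docetaxel cells, against 53.8, 57.8 and 58.3 CPM in knockout-labelled DMSO cells. In wild-type cells it measured 50.4, 49.98 and 54.0 CPM after docetaxel, against 56.5, 75.7 and 73.5 CPM with DMSO. Its groups overlapped in knockout-labelled cells and not in wild-type cells, and its interaction of 0.41 did not pass (SE 0.14, edgeR adjusted p = 0.339). It was called on leaving out wild-type DMSO library 1, with an interaction called for 2.70% of all tested genes there. Across the 75 genes other than Rpl24 the changes of the 2 genotypes had a Pearson r of 0.46 (Spearman rho 0.45); the values of a genotype share libraries.

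**Figure D3:**
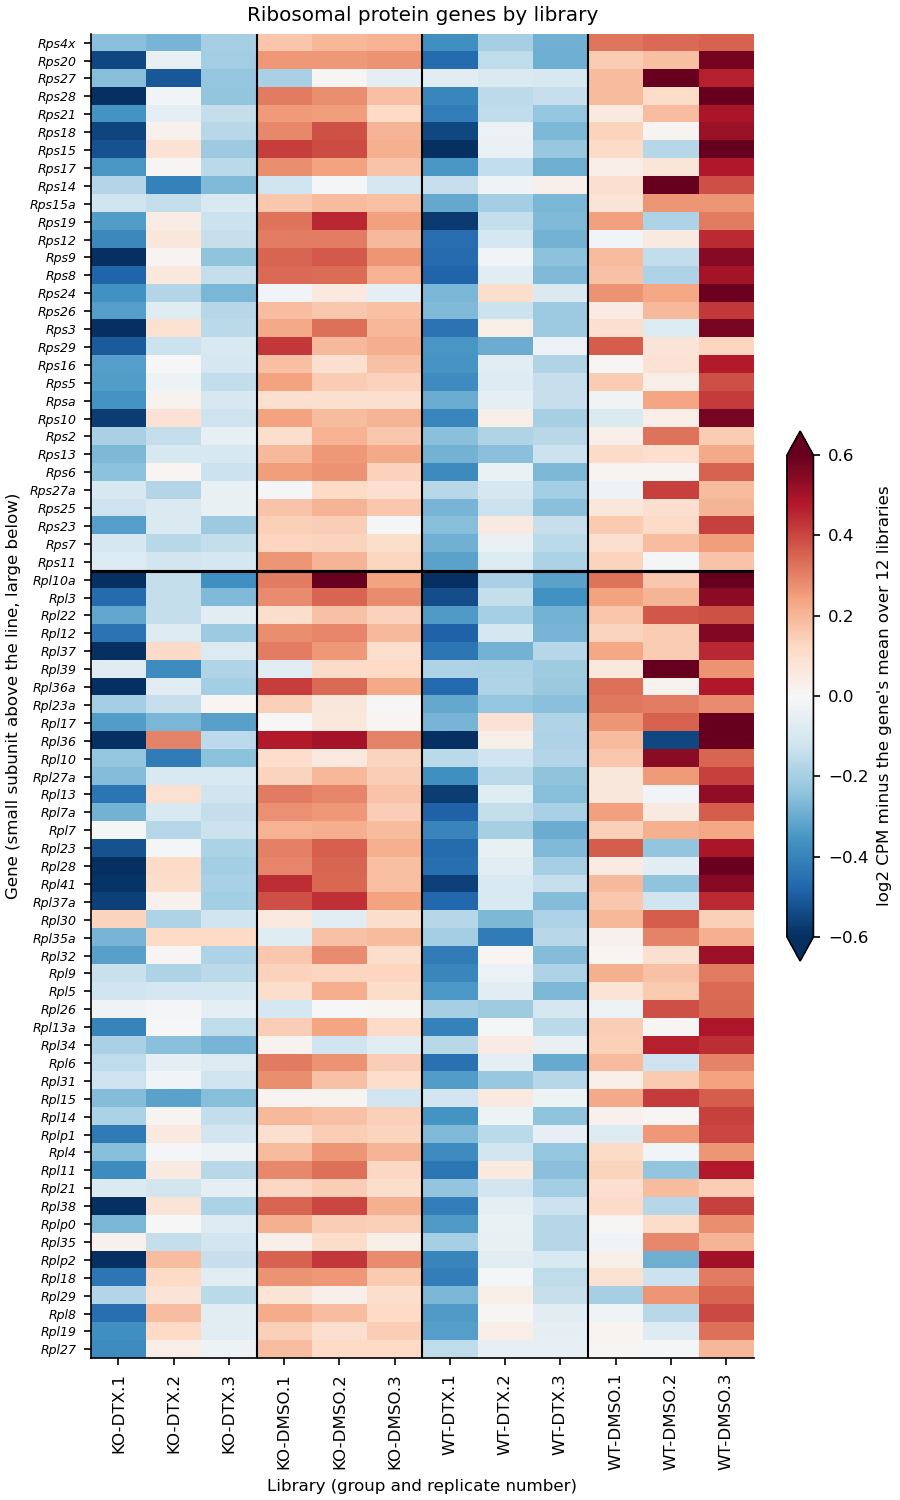
Log2 CPM of each gene in each library relative to the gene's mean over 12 libraries (colour, capped at 0.6 either way), for all members except Rpl24 and 1 gene not reported singly; columns are libraries by group, rows genes sorted by their wild-type docetaxel change within a subunit. DMSO columns are mostly red and docetaxel columns mostly blue, and docetaxel library 1 of each genotype is lowest.

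Libraries of 1 group did not stand level. Docetaxel library 1 held the smallest ribosomal protein share of its group in both genotypes, at 4.94% in knockout-labelled and 4.92% in wild-type cells, against 5.58 and 5.53% in the libraries numbered 2. Wild-type DMSO library 3 held the largest share of all, 7.23%, against 6.38 and 6.36% in the other wild-type DMSO libraries. Across the 75 genes the Pearson correlation of GC content with a library's departure from its group mean ran from -0.45 in wild-type docetaxel library 1 to 0.41 in wild-type docetaxel library 3 (Spearman -0.43 and 0.42). Across the same genes GC content correlated with the docetaxel change at r = -0.15 in knockout-labelled cells (Spearman -0.12) and at 0.30 in wild-type cells (Spearman 0.29). The genes share libraries in each of these values. With a GC correction 39 genes were called in knockout-labelled and 62 in wild-type cells. With it 50 of 54 named values kept their direction and their side of the threshold, 3 newly passed and 1 no longer passed.

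Classes of ribosomal proteins had similar medians. The proteins with counterparts in bacteria and archaea had median wild-type changes of -0.41 in the small and -0.46 in the large subunit, against -0.45 and -0.44 for the rest. The 28 genes with a run of at least 8 pyrimidines near the start had median changes of -0.31 in knockout-labelled and -0.41 in wild-type cells, and the 28 with a shorter run -0.39 and -0.45. Small nucleolar RNAs that guide modification of ribosomal RNA are annotated inside 29 of the 76 genes, and 25 overlap another gene, 21 of them on the opposite strand. The sources used here do not state strand use in the counting, so counts of these genes may include reads of the overlapping partner.

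Under DMSO 7 of the 76 genes were lower in knockout-labelled than in wild-type cells and none higher. Among all tested genes 9.2% were called lower, 6.6% higher and 15.8% in either direction. The count of lower genes is near that share, so it does not set the family apart. At an unadjusted p under 0.05 there were 11 genes of the family, a smaller share than the 29.7% of all tested genes. Lower genes were Rps27, Rps14, Rps24, Rpl34, Rpl17 and Rpl15, and the median over the family was -0.02, against 0.01 over all tested genes. Rps27 measured 475, 547 and 522 CPM in knockout-labelled DMSO cells, against 620, 968 and 751 CPM in wild-type DMSO cells, with a log2 change of -0.60 (SE 0.13, edgeR adjusted p = 0.00763). Rps14, a protein of the platform lost in the human 5q deletion syndrome, measured 669, 719 and 677 CPM in knockout-labelled DMSO cells, against 775, 1203 and 947 CPM in wild-type DMSO cells (log2 change -0.50, SE 0.13, edgeR adjusted p = 0.0169). In 12 of the 76 genes every knockout-labelled library lay below every wild-type library, against 16.9% of all tested genes. The 7 called genes were among these 12, but the same libraries chose them, so their separation adds no support. Wild-type DMSO library 2 was the highest of its group for Rps27, Rps14, Rpl34 and Rpl15.

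Rpl34 was lower by 0.41, Rpl17, which lines the exit tunnel's mouth, by 0.39, Rps24, mutated in Diamond-Blackfan anaemia in humans, by 0.37 and Rpl15, buried in the large subunit core, by 0.37 (edgeR adjusted p = 0.0103, 0.0225, 0.0394 and 0.00871). The members with the largest opposite changes were Rps19 at 0.20 and Rplp2 at 0.23, and neither passed (edgeR adjusted p = 0.366 and 0.514). Leaving out both library 2 of wild-type DMSO and library 3 of knockout-labelled docetaxel, each with its group's most Gm23935, Rps27 was the 1 gene called. The count was 3 without knockout-labelled DMSO library 1 or 3 and 4 without wild-type DMSO library 3.

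By position, all 6 members on chromosomes 3, 14 and 18 were called lower. These are Rps27 at chr3:90212522-90213651 and Rpl34 at chr3:130726831-130730398, Rpl15 at chr14:18267823-18271391 and Rps24 at chr14:24487125-24496959, and Rps14 at chr18:60747098-60778546 and Rpl17 at chr18:74998558-75003381, all GENCODE M21 positions on GRCm38. The median of these 6 was -0.40, against 0.00 for the members elsewhere, leaving out Rpl24. All tested protein-coding genes of these chromosomes leaned the same way, with median changes of -0.27, -0.26 and -0.27, and 35.1, 31.3 and 34.9% of them called lower. The chromosomes were singled out after values were seen, so these counts carry no test.

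**Figure D4:**
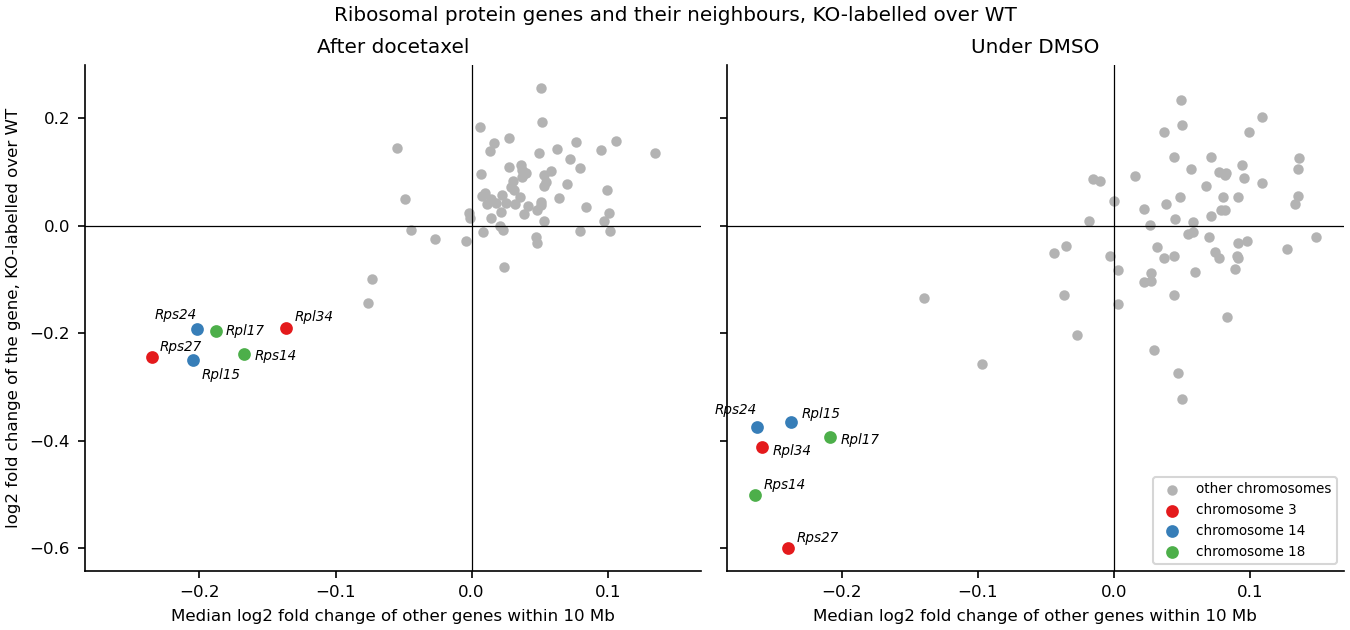
Knockout-labelled over wild-type change of each gene on the log2 scale (y axis) against the median change of other tested genes within 10 Mb on either side (x axis), after docetaxel and under DMSO, for all members except Rpl24 and 1 gene not reported singly. Members on chromosomes 3, 14 and 18 sit at the lower left in both panels, with neighbour medians from -0.26 to -0.21 under DMSO.

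Within 10 Mb on either side, the median of neighbouring genes was -0.24 around Rps27, -0.26 around Rpl34, -0.24 around Rpl15, -0.26 around Rps24, -0.26 around Rps14 and -0.21 around Rpl17. Across the 75 genes a member's change and its neighbours' median had a Pearson r of 0.77 (Spearman 0.54); both share libraries, and neighbouring members share neighbours. Rps3a1, a small subunit gene on chromosome 3 that the name rule leaves out, was lower by 0.29 (SE 0.086, edgeR adjusted p = 0.0325), and Rps27rt, outside the rule on chromosome 9, was lower by 0.85 (SE 0.22, edgeR adjusted p = 0.0194). Any reads that Rps27rt shares with Rps27 cannot be told apart in these counts, so its value may not be independent of Rps27.

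After docetaxel none of the 76 genes was called between genotypes by edgeR (against 3.39% of all tested genes lower, 2.5% higher and 5.89% in either direction), with 3 at an unadjusted p under 0.05 (18.1% of all tested genes), 1 call by DESeq2 (Rpl15) and 0 by limma-voom. The 7 genes lower under DMSO were all negative again, against 13 of the 68 others, leaving out Rpl24. Rpl15 measured 543, 521 and 545 CPM in knockout-labelled docetaxel cells, against 600, 677 and 636 CPM in wild-type docetaxel cells, without overlap (log2 change -0.25, SE 0.083, edgeR adjusted p = 0.103). The neighbours' medians were also negative after docetaxel, at -0.24 around Rps27 and -0.20 around Rpl15.

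Genes outside the name rule that share the family's products or sequences fell in part. Of 122 tested ribosomal protein pseudogenes, 0 rose and 14 fell in knockout-labelled cells, and 0 rose and 30 fell in wild-type cells (medians -0.28 and -0.46), against 7.0% and 13.8% of all tested genes lower. Reads shared with the parent genes cannot be told apart in these counts, so pseudogene and parent values are uncertain. Of 10 tested paralogs and other ribosomal proteins, 2 fell in knockout-labelled and 4 in wild-type cells, against the same shares, and none rose. Rpl22l1, the paralog that Rpl22 represses in mice, fell by 0.59 in knockout-labelled and by 1.07 in wild-type cells (edgeR adjusted p = 0.0229 and 0.000349). Like Rps27 it lies on chromosome 3, and it was lower by 1.01 in knockout-labelled than in wild-type cells under DMSO (edgeR adjusted p = 0.000771). That value and its docetaxel change in wild-type cells share the wild-type DMSO libraries. Rps3a1 fell in both genotypes, by 0.28 and 0.42 (edgeR adjusted p = 0.0397 and 0.0029), while Rps27l, a p53-responsive paralog of Rps27, changed by 0.25 and 0.29 and did not pass (edgeR adjusted p = 0.190 and 0.0941).

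Among 22 other TOP mRNAs and translation factors, 0 rose and 7 fell in knockout-labelled cells and 0 rose and 13 fell in wild-type cells, against the same shares, with medians of -0.24 and -0.33. Eif4b, which helps the helicase that unwinds mRNA starts, fell by 0.60 in knockout-labelled and by 0.80 in wild-type cells (edgeR adjusted p = 0.000955 and 9.26e-05). Npm1, the nucleolar histone chaperone nucleophosmin, fell by 0.47 and 0.59 (edgeR adjusted p = 0.0017 and 0.000244), and Hnrnpa1, an RNA-binding protein, by 0.68 and 0.78 (edgeR adjusted p = 0.00611 and 0.00165). Of 6 tested noncoding hosts of small nucleolar RNAs, 1 fell in knockout-labelled and 5 in wild-type cells, and none rose. Among all tested genes 7.0% and 13.8% were called lower, and 1 call among 6 genes cannot be told from that background. Their medians were -0.25 and -0.92, and no interaction was called among them. Snhg5 fell by 1.13 in wild-type cells (edgeR adjusted p = 0.000365).

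Genes that make and assemble ribosomes without being part of them were counted next. Of 32 genes of RNA polymerase I and ribosomal RNA processing, 1 rose and 0 fell in knockout-labelled cells, against 9.09% of all tested genes higher, and 19 rose and 1 fell in wild-type cells, against 14.5% higher. The interaction of genotype and treatment was called for 0 of these 32 genes, against 0.109% of all tested genes. At an unadjusted p under 0.05 in edgeR there were 9, against 11.0% of all tested genes. Rrp12, which acts in the maturation and export of subunits, rose by 1.29 in wild-type cells (SE 0.19, edgeR adjusted p = 0.000331), and Polr1e, a polymerase I subunit, by 0.92 (SE 0.16, edgeR adjusted p = 0.000902). Of 9 ribosomal protein chaperones and export factors, 3 rose in knockout-labelled and 4 in wild-type cells and none fell. Of all tested genes 9.09% and 14.5% were called higher, and no interaction was called among the 9. Ltv1, which escorts the small subunit out of the nucleus, rose by 0.50 and 0.79 (edgeR adjusted p = 0.00353 and 0.000114). Under DMSO 10 of the 32 processing genes were higher in knockout-labelled than in wild-type cells and none lower, against 6.6% of all tested genes higher and 9.2% lower. This comparison and the docetaxel change in wild-type cells share the wild-type DMSO libraries, so their counts are not independent.

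**Figure D5:**
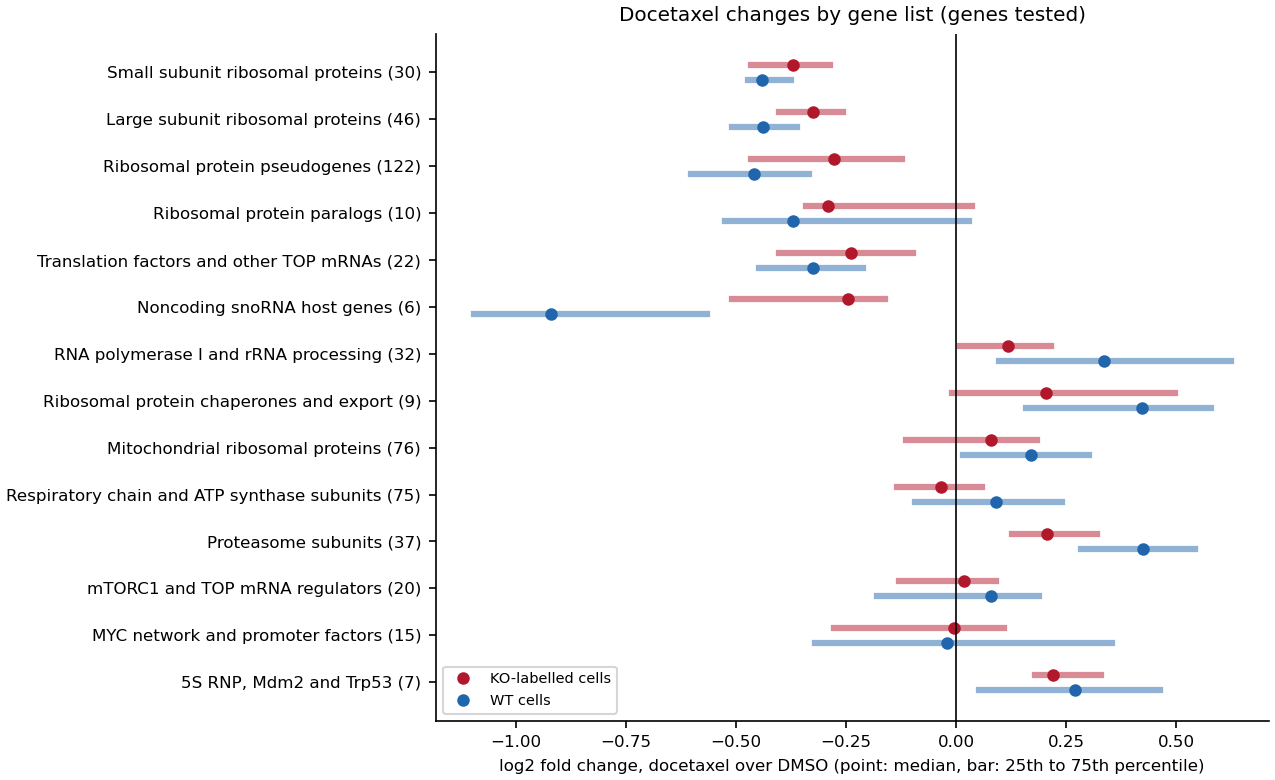
Docetaxel changes on the log2 scale (x axis) of 14 gene lists in knockout-labelled (red) and wild-type (blue) cells; points are medians, bars the 25th to 75th percentiles and numbers in brackets the genes tested. Both ribosomal subunits lie left of 0 at medians from -0.44 to -0.33, and proteasome subunits right of 0 at 0.21 and 0.42.

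Other large complexes were measured beside the ribosome. Of 76 tested mitochondrial ribosomal proteins, which work in a separate ribosome, 4 rose and 1 fell in knockout-labelled cells and 19 rose and 3 fell in wild-type cells, with medians of 0.08 and 0.17. Among all tested genes 9.09% rose and 7.0% fell in knockout-labelled cells, and 14.5% rose and 13.8% fell in wild-type cells. Of 75 subunits of the respiratory chain and ATP synthase, 0 rose and 3 fell in knockout-labelled cells and 6 rose and 7 fell in wild-type cells (medians -0.04 and 0.09). Of 37 proteasome subunits, 10 rose in knockout-labelled and 27 in wild-type cells, and none fell. Psmb8, an immunoproteasome subunit, rose by 1.47 and 1.00 (edgeR adjusted p = 0.00103 and 0.00641). No interaction of genotype and treatment was called in these 3 lists, against 0.109% of all tested genes. At an unadjusted p under 0.05 in edgeR there were 8 mitochondrial ribosomal, 7 respiratory and 7 proteasome genes, against 11.0% of all tested genes.

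Among regulators of the family, of 20 genes of mTORC1 and TOP mRNA control, 1 rose and 2 fell in knockout-labelled cells, and 2 rose and 5 fell in wild-type cells. The shares of all tested genes were 9.09% higher and 7.0% lower in knockout-labelled cells and 14.5% higher and 13.8% lower in wild-type cells, so most of these counts are near the background. Deptor, an inhibitor of mTOR, fell by 0.75 and 1.19 (edgeR adjusted p = 0.000173 and 4.44e-06), and Ddit4, a stress-induced mTORC1 inhibitor, by 1.06 and 0.79 (edgeR adjusted p = 0.00686 and 0.0207). Castor1, of the same list, went the other way in knockout-labelled cells, rising by 0.47 (edgeR adjusted p = 0.0125). Of 15 genes of the MYC network and ribosomal promoter factors, 2 rose and 2 fell in knockout-labelled cells and 3 rose and 4 fell in wild-type cells, against the same shares. Mycl, a MYC paralog, rose by 0.60 and 0.66 (edgeR adjusted p = 0.0196 and 0.00843), and Mxi1, a MYC antagonist, fell by 0.34 in knockout-labelled cells (edgeR adjusted p = 0.00817). Of 7 genes that link free ribosomal proteins to p53, 1 rose in knockout-labelled cells and 2 in wild-type cells, counts near the shares of all tested genes. Trp53 rose in knockout-labelled cells by 0.41 (edgeR adjusted p = 0.0282), where it had been lower than in wild-type cells under DMSO by 0.58 (edgeR adjusted p = 0.00385). Both Trp53 values share the knockout-labelled DMSO libraries. These transcript counts do not show whether the line makes a working p53 protein, and a p53 response was not tested.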

How the data were processed

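The deposited table holds counts of reads per gene symbol for 12 libraries of total RNA, depleted of ribosomal RNA and primed with random hexamers, per the labels' protocols. The authors used STAR 2.5.1a and Subread's featureCounts 1.4.6-p5, per the submitters' processing notes. The sources used here do not state the build, annotation, strand setting or multimapping rule. Of 40757 rows, 351 exact repeats (0.907% of counts, 7 of them members) were dropped.

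Positions, lengths and GC content came from GENCODE M21 by symbol. EdgeR 4.0.16 in R 4.3.3 fitted 1 quasi-likelihood model with 4 group means to 12 libraries after filterByExpr and TMM scaling. Two-sided p-values were adjusted by Benjamini-Hochberg over 15538 genes per contrast and called at 0.05. CPM values use TMM-scaled sizes, so changes are relative to the rest of the library. The common biological coefficient of variation was 13.2%. Spread between libraries sets the precision more than counting error does, except for Rpl24, and the model also fits a spread per gene. Leaving out Rpl24, the SE of the docetaxel change in wild-type cells ran from 0.070 for Rpl21 to 0.32 for Rpl36. Alternatives included DESeq2 1.42.0, limma-voom 3.58.1, other scalings and filters, GC and length corrections, a replicate block and omission of each library.

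Members, lists and tests were chosen with earlier results of these data known. The members named were up to 4 largest called changes per subunit, contrast and direction at 5 CPM or more, the 3 highest and 3 lowest per kilobase in each subunit, the largest change against a subunit's median, and 14 genes with known roles. Lists named up to 3 called genes at 5 CPM or more. Rpl23a, Rpl30, Rpl38, Rps27l and the printed promoters were chosen after their values were seen. A further member enters all counts and medians but is not reported singly here.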

Additional observations from a re-analysis of the deposited data

How the results depend on the processing

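No gene of the family was called higher after docetaxel in either genotype under any of the alternatives, and the family's median change stayed negative, from -0.39 to -0.24 in knockout-labelled and from -0.51 to -0.33 in wild-type cells. The number called moved more. In knockout-labelled cells it was 7 to 45 on leaving out single libraries, 14 with the length correction and 47 without a filter on low counts. It was 49 with the GC correction within groups and 15 on leaving out both library 2 of wild-type DMSO and library 3 of knockout-labelled docetaxel, both alternatives chosen after seeing the data. For the 5 single omissions that left 10 or fewer members, 8.21 to 11.2% of all genes were called in either direction, against 16.1%. In wild-type cells it was 31 to 63 on leaving out single libraries and 40 to 71 under the other alternatives. The causes were not tested.

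Between genotypes under DMSO the count was 3 to 10 on leaving out single libraries and 1 without the same pair of libraries. After docetaxel it was 1 by DESeq2 (Rpl15), 1 without a filter and 1 with the replicate block and GC correction together. For the interaction it was 1 by DESeq2 (Rpl23a) and 0 to 1 on leaving out single libraries (Rpl26). The family's share of counts after docetaxel was 0.798 times that with DMSO in knockout-labelled and 0.787 times in wild-type cells, or 0.776 to 0.824 and 0.766 to 0.823 times on leaving out single libraries. Replicate numbers did not pair the libraries throughout: 4 of 18 same-numbered pairs correlated above 0.1. Between the docetaxel groups of both genotypes, same-numbered pairs had r = 0.346, 0.218 and 0.0252 for numbers 1, 2 and 3. Pairs of number 1 with number 2 in these groups had r = -0.279 and -0.270. A differently numbered pair elsewhere reached 0.302 (number 2 under DMSO in wild-type cells, number 1 after docetaxel in knockout-labelled cells). With the replicate block 34 genes were called after docetaxel in knockout-labelled and 58 in wild-type cells, 7 and 0 between genotypes under DMSO and after docetaxel, and 0 for the interaction.

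For named genes, 1297 of 1456 values kept their direction and their side of the threshold, 100 no longer passed, 49 newly passed and 10 changed sign. Rpl26 after docetaxel in knockout-labelled cells was -0.0374 with upper-quartile scaling and -0.0378 to 0.0226 on leaving out single libraries. Rps9 in the interaction was 0.0124 without the pair of libraries and -0.325 to 0.0201 on leaving out single ones.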
